A study of Homo sapiens with 48 samples.

Results

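The mitotic gene set described here comprises 39 genes of mitosis and the G2/M transition, chosen by symbol for their known roles and followed in every library of the study. They were 39 of 60558 gene rows in the coculture files, 39 of 14009 in the knockout tumour files and 39 of 34843 in the mutant tumour files. All 39 had a row in each experiment, and all 39 passed the filter on low values in each (a normalised count of at least 10 in at least 3 libraries). RNA was sequenced from U2932, an established human line of diffuse large B-cell lymphoma, in 48 libraries that form 16 groups of 3. In the coculture experiment, cells labelled KLHL6 WT or KLHL6-KO were sampled after 0, 3, 8 and 12 h on OP9 stromal cells that stably express the NOTCH ligand DLL1. KLHL6 encodes a substrate adaptor of a cullin ubiquitin ligase, and NOTCH2 a receptor that DLL1 activates. The knockout tumours were xenografts labelled WT, KLHL6-KO (KLHL6-/- with NOTCH2+/+), NOTCH2-KO (NOTCH2-/- with KLHL6+/+) or DKO (both genes -/-). The mutant tumours were xenografts of cells that stably express 1 of 4 forms of NOTCH2: NOTCH2(WT), the substitution S2156A, or a protein cut short by R2400* or Q2140*. All tumours, controls included, grew in NSG mice, which lack lymphocytes, under CHOP (cyclophosphamide, doxorubicin, vincristine and prednisone), and were taken at a volume of 1 cm3. Vincristine acts on the mitotic spindle and doxorubicin on topoisomerase II, and all tumours analysed here had received both. Whether a knockout line was 1 clone, and which promoter drove the NOTCH2 variants, the labels do not say. They call the replicates biological without saying which cultures or animals these were. The p-values therefore set each difference against the spread between these samples and reach no further than them.

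Cells enter mitosis when CDK1 bound to cyclin B is freed of its inhibitory phosphates by CDC25 phosphatases. PLK1 and the Aurora kinases build the spindle, the kinetochore ties chromosomes to it, and the checkpoint kinases and MAD2 hold the anaphase-promoting complex until every chromosome is attached. CDC20 then starts the destruction of securin and cyclin B, and separase cuts cohesin. Transcripts of these genes generally climb late in the cell cycle, so their level in a proliferating lymphoma line can vary with the share of cells in G2 and M. In bulk RNA, fewer cells in these phases and less RNA per cell cannot be told apart.

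Promoter sequence is shown for the 5 members called in most comparisons (CENPF in 16 of 27, ASPM, CCNA2 and CCNB1 in 11 each, ESPL1 in 10). Transcription of the mitotic genes is known to depend on the cell cycle genes homology region (CHR), bound by the DREAM and MYB-MuvB complexes, and on CCAAT boxes, bound by NF-Y. Each window runs from 250 bases before to 50 bases after a start site (RefSeq, GRCh38.p14) and is written 5′ to 3′ on the strand of the gene. Capitals mark TTTGAA or its reverse complement TTCAAA (the CHR), TTCGAA (a CHR variant) and CCAAT or its reverse complement ATTGG.
CENPF, chr1:214602945-214603244, plus strand: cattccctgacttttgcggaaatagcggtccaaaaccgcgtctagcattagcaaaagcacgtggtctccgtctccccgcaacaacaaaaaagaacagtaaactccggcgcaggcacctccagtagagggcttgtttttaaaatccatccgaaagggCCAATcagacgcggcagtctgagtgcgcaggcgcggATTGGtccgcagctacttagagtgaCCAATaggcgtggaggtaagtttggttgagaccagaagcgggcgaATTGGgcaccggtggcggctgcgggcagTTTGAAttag
ASPM, chr1:197146620-197146919, minus strand: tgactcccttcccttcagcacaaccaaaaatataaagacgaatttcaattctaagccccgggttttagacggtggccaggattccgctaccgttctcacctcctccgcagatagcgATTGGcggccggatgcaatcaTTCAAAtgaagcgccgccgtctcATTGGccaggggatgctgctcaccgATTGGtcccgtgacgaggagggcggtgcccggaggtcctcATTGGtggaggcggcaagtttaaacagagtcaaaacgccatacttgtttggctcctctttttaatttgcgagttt
CCNA2, chr4:121823834-121824133, minus strand: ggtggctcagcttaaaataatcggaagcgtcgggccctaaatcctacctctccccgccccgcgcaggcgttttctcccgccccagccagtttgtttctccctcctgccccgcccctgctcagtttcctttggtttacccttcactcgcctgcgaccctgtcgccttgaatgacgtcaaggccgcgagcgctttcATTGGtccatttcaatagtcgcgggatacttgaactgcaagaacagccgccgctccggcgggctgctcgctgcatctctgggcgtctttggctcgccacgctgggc
CCNB1, chr5:69166900-69167199, plus strand: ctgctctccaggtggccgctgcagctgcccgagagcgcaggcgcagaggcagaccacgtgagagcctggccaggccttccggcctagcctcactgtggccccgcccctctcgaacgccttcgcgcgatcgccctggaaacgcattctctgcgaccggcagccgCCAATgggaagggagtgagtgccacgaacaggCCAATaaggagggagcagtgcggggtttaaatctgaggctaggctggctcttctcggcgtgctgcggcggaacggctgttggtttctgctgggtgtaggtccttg
ESPL1, chr12:53268049-53268348, plus strand: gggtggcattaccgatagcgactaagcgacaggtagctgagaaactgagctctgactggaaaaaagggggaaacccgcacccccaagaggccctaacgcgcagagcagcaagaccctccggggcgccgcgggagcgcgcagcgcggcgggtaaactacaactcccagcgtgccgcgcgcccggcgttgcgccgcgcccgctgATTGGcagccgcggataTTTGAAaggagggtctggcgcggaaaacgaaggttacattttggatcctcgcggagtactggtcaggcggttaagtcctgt
CENPF and ASPM hold 1 CHR and 4 CCAAT boxes each, and ESPL1 holds 1 CHR and 1 CCAAT box. In the CCNA2 and CCNB1 windows there is no TTTGAA, with 1 and 2 CCAAT boxes. A promoter was listed for 32 of the 39 members, and AURKA, BUB3, TTK, BIRC5, TPX2, UBE2C and FOXM1 had none listed. Among the 32, TTTGAA on either strand occurred in 22 (68.8%), where 18.2% of all 27305 genes listed have it in at least 1 window. CCAAT occurred in 27 (84.4% against 39.7%), both motifs in 19 (59.4% against 7.26%) and TTCGAA in 3 (9.38% against 1.82%). Each motif was searched on both strands and independently of the others, so matches may overlap. They describe letters in the windows and not binding.

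Depth was 11.1 to 17.4 M reads per library in coculture, 12.7 to 17.1 M in the mutant tumours, and 3.71 to 15.2 M in the knockout tumours, where replicate 3 of the labelled DKO was the shallowest. Levels are normalised counts, given per library or as mean ± SD of 3 libraries, and differences are log2 ± SE on the scale of log2(normalised count + 2), tested with limma over all libraries of the experiment. A value ± SE that follows a gene in parentheses on its own is its log2 difference, and replicates named after "without" were left out 1 at a time. A gene is called where its p, adjusted by Benjamini-Hochberg over all genes tested, is under 0.05. All 8 B-cell markers were expressed in every group, with a summed level of at least 27489 in each library. In culture KLHL6 was lower in the knockout than in WT, at 2539.5, 2414 and 2191 against 6123, 5417 and 4629 at 0 h. In tumours it went against the labels, at 6289, 6276 and 7045 in the group labelled KLHL6-KO, 3554, 5266 and 4902 in the labelled DKO group and 3478, 4781 and 4856 in WT, so these groups are called by their labels throughout. NOTCH2 was 329, 448 and 292 in the labelled NOTCH2-KO tumours, 612, 562 and 531 in the labelled DKO and 420.2, 850.3 and 909 in WT. In the mutant tumours NOTCH2 was 15858 ± 567 with NOTCH2(WT), 16649.9 ± 1050.4 with S2156A, 26466 ± 2748 with R2400* and 59619 ± 4181 with Q2140*. WT tumour replicate 1 stood apart from its group (median absolute log2 distance to the other 2 libraries 0.29, against at most 0.19 for any other library), and its mitotic members lay a median of 0.25 above them. Labelled DKO replicate 1 correlated best with WT tumour replicate 2, while the other 47 libraries correlated best within their own group.

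The mitotic genes moved little in size and in many directions. No member differed 2-fold in any of the 27 comparisons, and 36 of 39 were called in at least 1. CDK1, the kinase at the centre of the programme, was called in none, nor were PRC1 and NUSAP1, which bundle spindle microtubules. CDK1 lay at 1102 ± 41.6 in WT cells at 0 h and 1084 ± 131 at 12 h. NUSAP1 was counted at only 12.1 ± 6.88 at 0 h, and its differences have wide errors.

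In WT cells the first 3 h on OP9-DLL1 split the programme, with 11 members higher and 10 lower. Cyclin B1, Aurora A, the centromeric histone CENPA and the proliferation antigen MKI67 rose, while the spindle proteins HMMR and DLGAP5, separase (ESPL1) and the centrosome kinase NEK2 fell. The 21 calls are 53.8% of the members, beside 54.8% of all genes tested (27.2% higher and 27.6% lower), so the share called is close to that of all genes. CCNB1, the cyclin that activates CDK1, rose from 1514, 1559 and 1702 to 2119, 2072 and 2190.2 (log2 0.42 ± 0.06, adjusted p = 5.2e-07). AURKA, which matures centrosomes, went from 1052, 1047 and 1116 to 1369, 1430.0 and 1404 (log2 0.39 ± 0.06, adjusted p = 8.4e-07). CENPA, which marks the centromere, rose from 262, 291 and 323 to 377, 433 and 429 (log2 0.50 ± 0.09, adjusted p = 2.8e-05). For each of these 3 genes, every library at 3 h lay above every library at 0 h. MKI67, which coats mitotic chromosomes, rose from 5049.7 ± 439.9 to 6611 ± 374 (log2 0.39 ± 0.08, adjusted p = 7.7e-05), with the checkpoint adaptor BUB3 (0.34 ± 0.06) and the spindle motor KIF11 (0.31 ± 0.06).

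HMMR, a spindle assembly factor, fell from 1382, 1401 and 1527 to 898, 897 and 1066 (log2 -0.59 ± 0.09, adjusted p = 1.4e-06). ESPL1 fell from 1203, 1182 and 1218 to 812, 847 and 858 (log2 -0.52 ± 0.06, adjusted p = 2.1e-09), and NEK2 from 752, 812 and 783 to 579.8, 571 and 592 (log2 -0.43 ± 0.07, adjusted p = 2.9e-06). The 2 times did not overlap for any of the 3. The checkpoint kinase BUB1 fell by a similar step (-0.39 ± 0.07, 612 ± 31.3 from 804 ± 42.2), as did DLGAP5 (-0.31 ± 0.06). CDC25C, a phosphatase that activates CDK1, also fell (98.6 ± 9.77 from 126 ± 9.95, log2 -0.35 ± 0.13, adjusted p = 0.025), a call lost with no filter on low values, and without replicates 2 or 3 of WT 0 h, or replicates 1 or 3 of WT 3 h (adjusted p up to 0.12). By role, the cyclins, CDK1 and CDC25 group had 2 higher and 2 lower of 6, the kinases 1 and 3 of 7, the checkpoint and anaphase genes 2 and 2 of 6, the kinetochore and centromere genes 3 and 1 of 6, the kinesins and spindle genes 2 and 2 of 11, and the chromosome and proliferation genes 1 and 0 of 3.

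**Figure D1:**
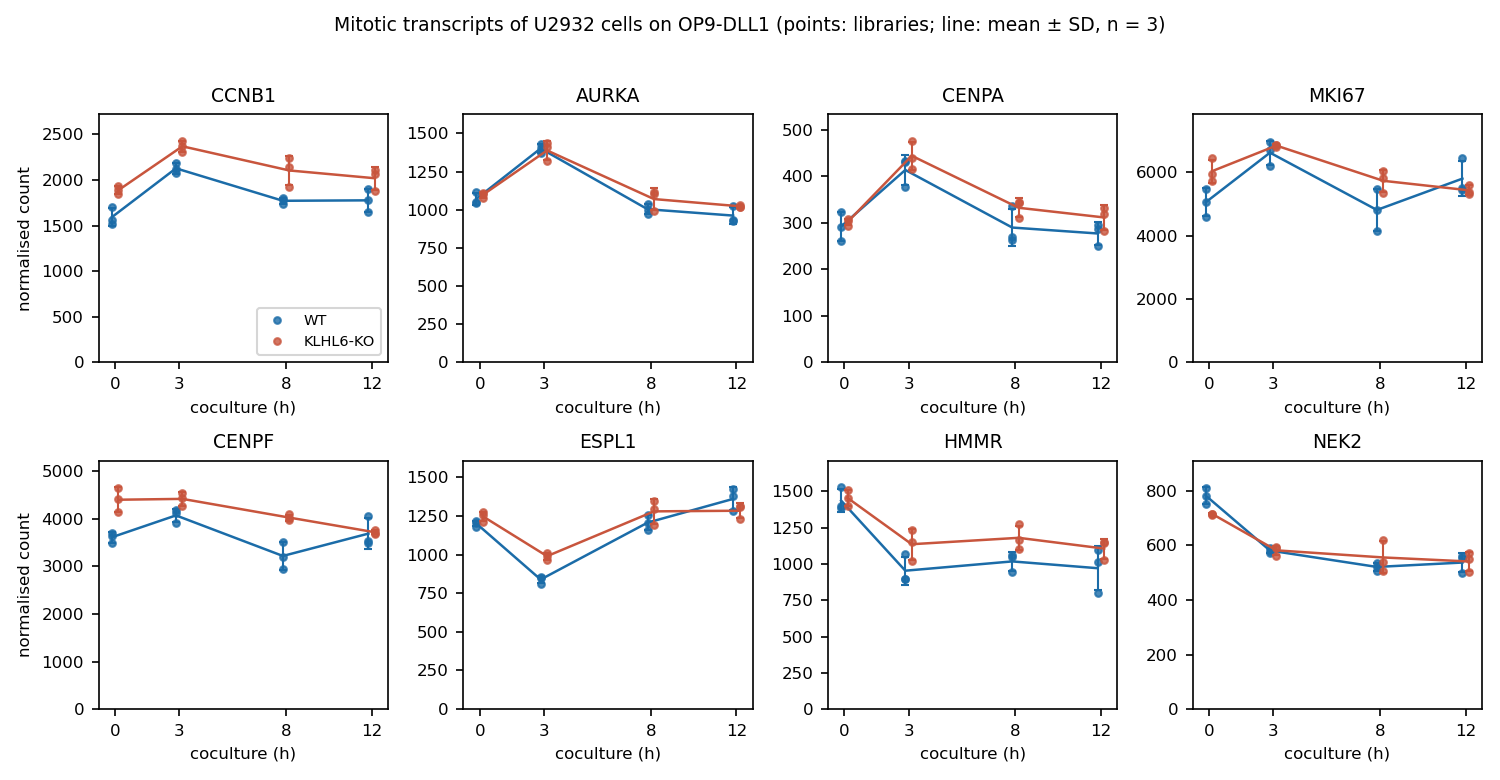
Normalised counts of 8 mitotic genes (y axis) over 0, 3, 8 and 12 h of coculture (x axis) in WT and KLHL6-KO cells, with a point per library and lines through the mean ± SD of 3 libraries. CCNB1, AURKA and CENPA peak at 3 h in both genotypes, ESPL1 dips at 3 h and returns by 8 h, and HMMR and NEK2 stay below their 0 h level.

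Neighbouring parts of the cell cycle moved in WT cells at 3 h too. Of 45 G1/S and replication genes tested, 24 were higher and 9 lower, with a median log2 of 0.18 beside -0.006 for all genes. Cyclin E2 (CCNE2) rose most surely (1165 ± 64.2 against 631 ± 34.2, log2 0.88 ± 0.07, adjusted p = 2.2e-13). Of 17 subunits and partners of the anaphase-promoting complex, 11 were higher and none lower (median 0.23), among them the coactivator FZR1 (688 ± 32.2 against 514 ± 50.5, log2 0.42 ± 0.07, adjusted p = 1.8e-06). The CDK inhibitors and brakes on mitotic entry had 3 of 15 higher and 8 lower. CDKN1A, which encodes the inhibitor p21, fell (344 ± 42.2 against 835 ± 51.9, log2 -1.28 ± 0.09, adjusted p = 2.2e-14), while WEE1, the kinase that restrains CDK1, rose (4656 ± 48.5 against 2955 ± 56.6, log2 0.66 ± 0.05, adjusted p = 2.9e-12). Of the regulators of mitotic transcription 9 of 21 were higher and 4 lower, led by NFYA, a subunit of the CCAAT-binding factor (791 ± 27.7 against 371 ± 32.8, log2 1.09 ± 0.07, adjusted p = 2.9e-15). Of the 50 further G2/M genes, 49 were tested, with 17 higher and 10 lower.

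From 3 to 8 h CCNB1, AURKA and CENPA fell again, CCNB1 only part of the way to its 0 h level. From 3 to 8 h in WT cells 2 members were higher and 11 lower (33.3%, beside 36.3% of all genes, 17.5% higher and 18.8% lower). CENPA came back to 336, 264 and 269 (log2 -0.52 ± 0.09, adjusted p = 4.6e-05) and AURKA to 1041, 973 and 996 (log2 -0.48 ± 0.06, adjusted p = 4.9e-08). KIF20A, a kinesin of cytokinesis, fell from 594, 646 and 633 to 455, 429 and 468 (log2 -0.47 ± 0.07, adjusted p = 6.4e-06). In all 3 the 8 h libraries lay below the 3 h libraries. ESPL1 ran the other way, up to 1255, 1161 and 1206 at 8 h (log2 0.52 ± 0.06, adjusted p = 5.9e-09), again with no overlap, and AURKB, the kinase of the chromosomal passenger complex, rose too (0.24 ± 0.07). In all, 6 members rose by 3 h and then fell to 8 h (CCNB1, AURKA, CENPA, CENPF, KIF11 and MKI67), and ESPL1 was the 1 member with the opposite course. Neither these courses nor the patterns over several times given below were counted over all genes. Whether they are particular to the members is therefore not known.

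Against 0 h, WT cells at 8 h had 6 members higher and 15 lower (53.8%, beside 56.2% of all genes, 28% higher and 28.2% lower), and at 12 h 5 higher and 16 lower (53.8%, beside 53% of all genes, 27.1% higher and 25.9% lower). At 12 h 41.0% of members were lower. BUB1, BUB1B, HMMR, DLGAP5, NEK2, NUF2 and PTTG1 were lower at all 3 times, and CCNB1 was the 1 member higher at all 3. NEK2 held at 520.3, 536 and 507 at 8 h (log2 -0.58 ± 0.07, adjusted p = 9.4e-09) and 498, 554 and 559.8 at 12 h (log2 -0.54 ± 0.07, adjusted p = 5.3e-08). HMMR lay at 803, 1095 and 1014 at 12 h (log2 -0.58 ± 0.09, adjusted p = 3.1e-06). Cyclin B2 (CCNB2) fell later, from 881, 912 and 958 to 724, 692 and 749 at 8 h and 566, 653 and 638 at 12 h (log2 -0.57 ± 0.07, adjusted p = 1.2e-08). For these 3 genes no 12 h library reached the 0 h range. MAD2L1, which encodes the checkpoint protein MAD2, was lower at 12 h (1002 ± 100.4 from 1320.3 ± 91.0, log2 -0.40 ± 0.12, adjusted p = 0.0066), as were the checkpoint kinase TTK (-0.35 ± 0.07), the checkpoint pseudokinase BUB1B (-0.36 ± 0.06) and the kinetochore protein NUF2 (-0.34 ± 0.08). AURKB was higher at 12 h (1113 ± 58.2 from 928 ± 106, log2 0.27 ± 0.07, adjusted p = 0.0012). CCNA2, cyclin A, and BUB3 were higher at 8 h (0.27 ± 0.06, or 0.18 without replicate 1 of WT 8 h, and 0.28 ± 0.06), and the kinetochore motor CENPE was lower (-0.40 ± 0.07). CCNB1 at 8 h (log2 0.16 ± 0.06, adjusted p = 0.031) lost its call in a fit of these groups only, and without replicates 1 or 2 of WT 0 h, or replicates 1 or 3 of WT 8 h (adjusted p up to 0.14). The count at 12 h was 13 without replicate 1 of WT 12 h, the library in which the mitochondrial share of counts was 23.2%, against 9.64 ± 0.452% at 0 h. Its part in the result was not tested.

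From 8 to 12 h in WT cells the changes were again mixed, with 5 members higher and 7 lower (30.8%, beside 25.1% of all genes, 13% higher and 12.1% lower). ASPM, which focuses spindle poles, rose from 2544, 2139.7 and 2518 to 3605, 3036 and 2776 (log2 0.38 ± 0.09, adjusted p = 0.002). BIRC5, which encodes survivin, fell from 1788, 1807 and 1697 to 1381, 1436 and 1453 (log2 -0.31 ± 0.06, adjusted p = 0.00046), and KIF11 from 1075, 915 and 1029 to 821, 889.6 and 810.1 (log2 -0.26 ± 0.06, adjusted p = 0.0031). The 2 times were apart for each of these 3. CENPE, CENPF, ASPM and MKI67 were lower from 3 to 8 h and higher from 8 to 12 h. The count of 12 became 7 without replicate 2 of WT 8 h, or replicates 1 or 3 of WT 12 h. Over the same interval 29 of 45 G1/S and replication genes fell and 1 rose (median -0.24), led by the repair glycosylase UNG (1320.4 ± 36.9 against 1949 ± 71.5, log2 -0.56 ± 0.06, adjusted p = 3.5e-08), and E2F1 fell among the regulators (799 ± 63.6 against 1084 ± 113, log2 -0.44 ± 0.07, adjusted p = 7.3e-06).

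The summed level of transcripts that mark stroma was also higher in libraries after 0 h, though not every such gene rose. The 15-gene stroma list summed to 71.5 to 96.7 per library in WT cells at 0 h, 205 to 245 at 3 h, 277 to 301 at 8 h and 217 to 676 at 12 h, with COL1A2, COL3A1, COL6A2, PDGFRA and THY1 at 0 in all 3 libraries at 0 h. In KLHL6-KO cells, where COL1A2, COL6A2, PDGFRA, PDGFRB and THY1 were at 0 in all 3 libraries at 0 h, the sums were 37.3 to 54.1, 173 to 260.1, 293 to 349.9 and 253 to 299.9. THY1 stayed at 0 in all libraries of WT 8 h and 12 h and of KLHL6-KO 3 h and 8 h, and PDGFRA in those of KLHL6-KO 8 h. In WT cells SPARC was 10.8 ± 0.576 at 0 h, 5.29 ± 1.92 at 3 h, 3.80 ± 0.635 at 8 h and 8.99 ± 3.41 at 12 h. The part of stromal transcripts in the mitotic changes was not tested. The summed count of the 39 members was 57514 ± 681 at 0 h, 58968 ± 1370.0 at 3 h, 53992 ± 2579 at 8 h and 55089 ± 1866 at 12 h in WT cells.

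In KLHL6-KO cells cyclin B1, Aurora A and CENPA also rose by 3 h, and HMMR, NEK2 and separase fell. At 3 h 7 members were higher and 6 lower (33.3%, beside 39.1% of all genes, 19.5% higher and 19.6% lower). CCNB1 went from 1842, 1933 and 1885 to 2305, 2377 and 2424 (log2 0.33 ± 0.06, adjusted p = 5.5e-05). AURKA rose from 1113, 1078 and 1103 to 1317, 1412 and 1436 (log2 0.34 ± 0.06, adjusted p = 1.6e-05) and CENPA from 293, 304 and 307 to 416, 439 and 476 (log2 0.55 ± 0.09, adjusted p = 1.3e-05). As in WT cells, no library at 3 h overlapped 0 h for these genes. KIF20A (0.33 ± 0.07) and KIF23, both kinesins of the midzone (0.32 ± 0.06), also rose. ESPL1 fell from 1214, 1274 and 1255 to 992, 1012 and 966 (log2 -0.33 ± 0.06, adjusted p = 1.6e-05), HMMR from 1455 ± 53.9 to 1136 ± 108 (log2 -0.36 ± 0.09, adjusted p = 0.0016) and NEK2 from 715 ± 1.82 to 582 ± 17.7 (log2 -0.30 ± 0.07, adjusted p = 0.00076). FOXM1, the transcription factor that activates many of these genes, fell in KLHL6-KO cells from 1448, 1406 and 1390.3 to 1136, 1231 and 1142 (log2 -0.27 ± 0.06, adjusted p = 0.00032), with all 3 libraries below 0 h. The lower calls of DLGAP5 and TPX2, an activator of Aurora A, were weaker. DLGAP5 (log2 -0.17 ± 0.06, adjusted p = 0.035) lost its call with no filter on low values, and without replicates 1 or 2 of KLHL6-KO 0 h, or replicates 1, 2 or 3 of KLHL6-KO 3 h (adjusted p up to 0.11). TPX2 (log2 -0.15 ± 0.06, adjusted p = 0.044) lost its call with no filter on low values, with TMM scaling, with edgeR, and without replicates 2 or 3 of KLHL6-KO 0 h, or replicates 1 or 2 of KLHL6-KO 3 h (adjusted p up to 0.19).

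At the later times more members were lower than higher in KLHL6-KO cells. From 3 to 8 h 1 member rose and 8 fell (23.1%, beside 26.5% of all genes, 13.1% higher and 13.4% lower), with ESPL1 back at 1349, 1297 and 1194 (log2 0.37 ± 0.06, adjusted p = 8.5e-06), KIF20A down to 479 ± 41.5 (-0.42 ± 0.07), CENPA to 332 ± 19.9 (-0.42 ± 0.09) and AURKA to 1069.8 ± 69.4 (-0.38 ± 0.06). Against 0 h, 2 members were higher and 8 lower at 8 h (25.6%, beside 37.8% of all genes, 19.2% higher and 18.6% lower). NEK2 (log2 -0.37 ± 0.07, adjusted p = 6.6e-05), HMMR (log2 -0.30 ± 0.09, adjusted p = 0.0075) and CCNB2 (log2 -0.25 ± 0.07, adjusted p = 0.0037) were lower under every alternative run, and the count was 6 without replicates 1, 2 or 3 of KLHL6-KO 8 h. At 12 h 1 member was higher and 15 lower (41.0%, beside 40.5% of all genes, 20.6% higher and 20% lower), so 38.5% of members were lower. The mitochondrial share of counts was 17.8, 15.1 and 12.8% in the 3 libraries at 12 h and 9.76, 10.4 and 9.88% at 0 h, and its part in the result was not tested. NEK2 stood at 502, 571 and 551 (log2 -0.40 ± 0.07, adjusted p = 1.6e-05). CCNB2 stood at 723, 797 and 756 (log2 -0.34 ± 0.07, adjusted p = 9.5e-05), and KIF11 at 771, 779 and 825 against 1036, 1028 and 944 at 0 h (log2 -0.34 ± 0.06, adjusted p = 6.4e-05). None of these libraries reached the 0 h range. CDC25B, a phosphatase of mitotic entry, fell from 1193 ± 46.0 to 958 ± 10.1 (log2 -0.32 ± 0.06, adjusted p = 3.4e-05), with CDC25C (-0.47 ± 0.13) and BIRC5 (-0.29 ± 0.06). TPX2, HMMR, NEK2 and FOXM1 were lower at all 3 times, a pattern not counted over all genes. From 8 to 12 h 4 members fell and none rose (10.3%, beside 11.9% of all genes, 5.87% higher and 6% lower). KIF11 fell from 940.4 ± 19.2 (log2 -0.25 ± 0.06, adjusted p = 0.0086), and the count was 1 without replicates 2 or 3 of KLHL6-KO 8 h, or replicate 1 of KLHL6-KO 12 h, and 2 without replicate 3 of KLHL6-KO 12 h. The summed count of the members was 60831 ± 1413 at 0 h and 54873 ± 1073 at 12 h. Of the G1/S and replication genes, 18 of 45 fell from 8 to 12 h and none rose (median -0.17).

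**Figure D2:**
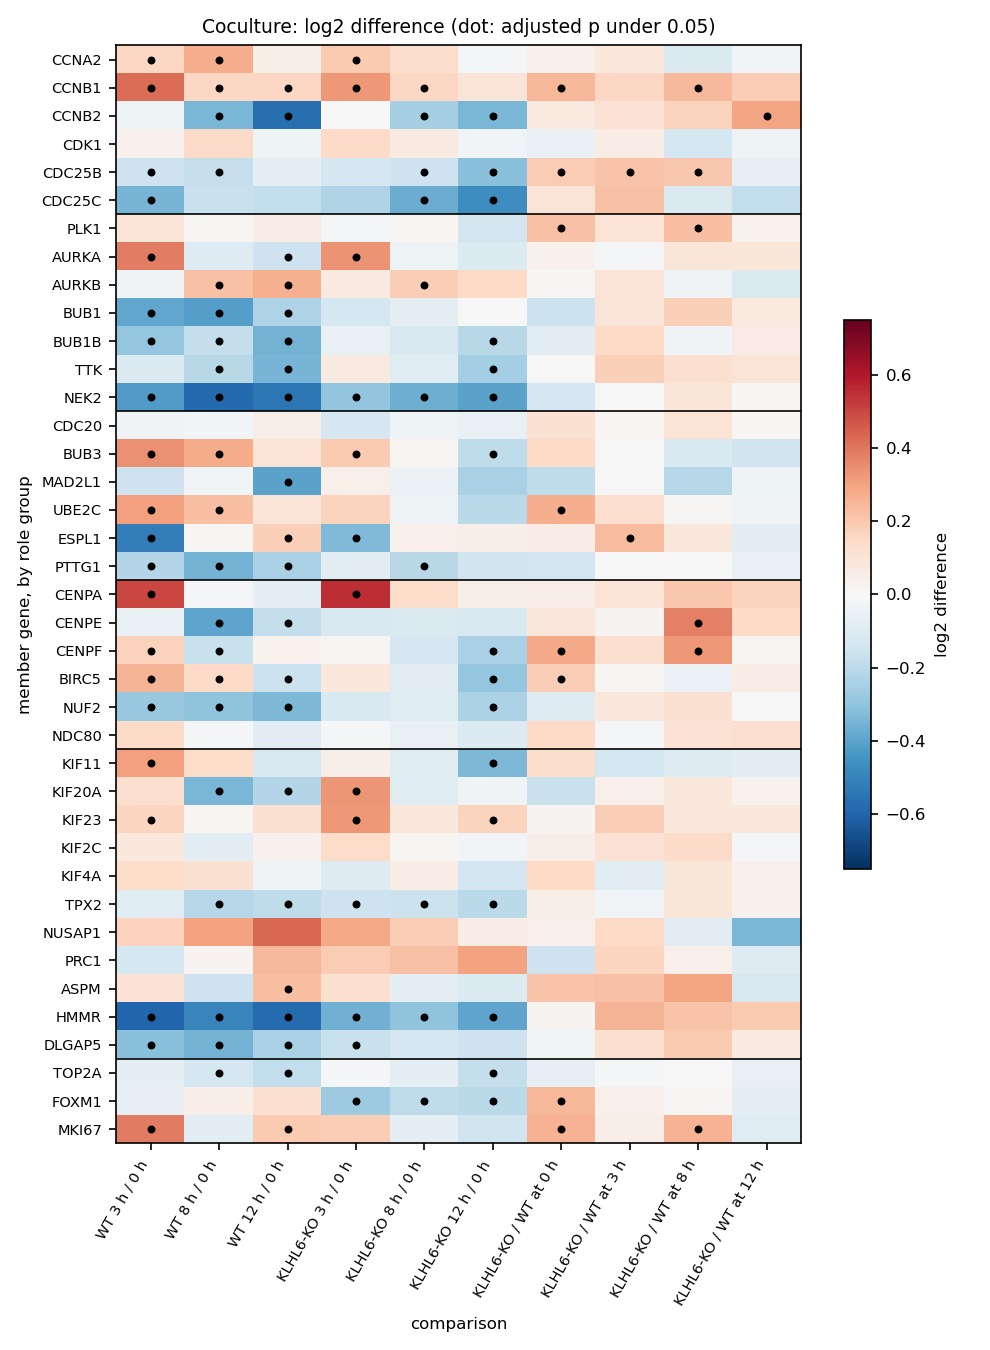
Log2 difference (colour) of the 39 members (rows, in 6 role groups divided by lines) in 10 coculture comparisons (columns), with a dot where the adjusted p is under 0.05. Every dot in the 4 columns that compare KLHL6-KO with WT cells lies on a higher value, and the 12 h columns hold 16 lower calls in WT cells and 15 in KLHL6-KO cells.

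Between genotypes, each called member was higher in KLHL6-KO cells. In a fit with a replicate block, 9 members were higher and 2 lower at 0 h, and 7 higher and 1 lower at 8 h. That fit called 4593 and 1027 of all 15032 genes at these times. At 0 h 8 members were called, all higher (20.5%, beside 26.1% of all genes, 13.7% higher and 12.5% lower). CENPF, a kinetochore protein of late G2, was 4136, 4652 and 4420.4 in KLHL6-KO and 3644, 3708 and 3489 in WT cells (log2 0.28 ± 0.06, adjusted p = 0.00074). CCNB1 was 1842, 1933 and 1885 against 1514, 1559 and 1702 (log2 0.25 ± 0.06, adjusted p = 0.0031), and FOXM1 1448, 1406 and 1390.3 against 1202, 1166 and 1198 (log2 0.25 ± 0.06, adjusted p = 0.0018). The genotypes did not overlap in any of the 3. MKI67 (0.26 ± 0.08), the kinase PLK1 (0.22 ± 0.06) and UBE2C, the E2 enzyme of the anaphase-promoting complex (0.27 ± 0.10), were higher as well. MKI67 lost its call with no filter on low values, and without replicate 3 of WT 0 h, or replicate 2 of KLHL6-KO 0 h (adjusted p up to 0.085), PLK1 without replicate 2 of WT 0 h, or replicate 2 of KLHL6-KO 0 h (adjusted p up to 0.06) and UBE2C without replicates 1 or 2 of WT 0 h, or replicates 2 or 3 of KLHL6-KO 0 h (adjusted p up to 0.2). The count was 4 without replicate 2 of KLHL6-KO 0 h, and 5 without replicate 1 of WT 0 h, or replicate 3 of KLHL6-KO 0 h. Among members not called, BUB1 (log2 -0.16), KIF20A (-0.16), NEK2 (-0.13) and PTTG1 (-0.14) were lower in KLHL6-KO cells with no overlap. BUB3 (0.15) and KIF4A (0.15) were higher in the same way. How many of all genes were apart without a call was not counted, so these differences are not a result about the members.

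At 3 h only ESPL1 and CDC25B were called, both higher (5.13%, beside 7.82% of all genes, 3.82% higher and 4% lower). ESPL1 was 992, 1012 and 966 in KLHL6-KO and 812, 847 and 858 in WT cells (log2 0.24 ± 0.06, adjusted p = 0.0064), with no overlap. CDC25B (1094 ± 55.6 against 941 ± 31.3, log2 0.22 ± 0.06, adjusted p = 0.014) lost its call with no filter on low values, and without replicates 1 or 2 of WT 3 h, or replicate 2 of KLHL6-KO 3 h (adjusted p up to 0.11), and the count was 1 without replicate 1 of WT 3 h, or replicate 2 of KLHL6-KO 3 h. At 8 h 6 members were higher (15.4%, beside 4.34% of all genes, 2.02% higher and 2.32% lower). CENPE was 1077, 1222 and 1219.7 against 914, 874 and 918 (log2 0.38 ± 0.07, adjusted p = 0.0013) and CENPF 3969, 4016 and 4097 against 3205, 2943 and 3513 (log2 0.33 ± 0.06, adjusted p = 0.0007). Both kinetochore genes were apart in every library and called under every alternative run. CCNB1 (0.25 ± 0.06), PLK1 (0.22 ± 0.06), CDC25B (0.20 ± 0.06) and MKI67 (0.26 ± 0.08) were called less firmly, with adjusted p of 0.014, 0.031, 0.032 and 0.049. CCNB1 lost its call without replicate 2 of WT 8 h, or replicates 2 or 3 of KLHL6-KO 8 h (adjusted p up to 0.11), and PLK1 in a fit of these groups only, and without replicates 1 or 2 of WT 8 h, or replicates 2 or 3 of KLHL6-KO 8 h (adjusted p up to 0.14). CDC25B lost its call with no filter on low values, in a fit of these groups only, and without replicates 1, 2 or 3 of WT 8 h, or replicates 1, 2 or 3 of KLHL6-KO 8 h (adjusted p up to 0.11), and MKI67 with no filter on low values, in a fit of these groups only, and without replicates 1 or 2 of WT 8 h, or replicates 1 or 3 of KLHL6-KO 8 h (adjusted p up to 0.31). The count was 2 without replicate 2 of WT 8 h, or replicate 3 of KLHL6-KO 8 h, and 3 without replicate 2 of KLHL6-KO 8 h. In the same comparison 7 of 45 G1/S and replication genes were lower in KLHL6-KO cells and none higher, cyclin E2 among them (845 ± 7.86 against 1100.2 ± 95.7, log2 -0.38 ± 0.07, adjusted p = 0.00032). At 12 h CCNB2 alone was called (723, 797 and 756 against 566, 653 and 638, log2 0.29 ± 0.07, adjusted p = 0.0069, 2.56%, beside 3.39% of all genes, 1.4% higher and 2% lower), a call lost without replicate 1 of WT 12 h, or replicate 2 of KLHL6-KO 12 h (adjusted p up to 0.079). The count was 0 without replicate 1 of WT 12 h, or replicate 2 of KLHL6-KO 12 h, and 2 without replicate 2 of WT 12 h, or replicate 1 of KLHL6-KO 12 h.

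Whether the time course differed between genotypes was tested jointly over 3, 8 and 12 h. CENPF, CDC25B, FOXM1, ESPL1 and BUB3 were called (12.8%, beside 12.4% of all genes). CENPF was the firmest (adjusted p = 0.03), with differences from the 0 h contrast of -0.17 ± 0.09 at 3 h, 0.04 ± 0.09 at 8 h and -0.27 ± 0.09 at 12 h. For FOXM1 (adjusted p = 0.038) these were -0.21 ± 0.08, -0.24 ± 0.08 and -0.32 ± 0.08, and for ESPL1 (adjusted p = 0.039) 0.18 ± 0.08, 0.03 ± 0.08 and -0.14 ± 0.08. The ESPL1 dip at 3 h was thus the smaller in KLHL6-KO cells, and the 0 h excess of FOXM1 in these cells was smaller at each later time. The count was 0 without replicate 2 of KLHL6-KO 0 h, and 1 without replicate 1 of WT 0 h, or replicate 3 of KLHL6-KO 0 h, or replicates 1, 2 or 3 of KLHL6-KO 12 h, and 2 without replicates 1 or 2 of WT 3 h, or replicate 2 of WT 12 h, or replicate 2 of KLHL6-KO 3 h, and 3 without replicate 2 of WT 8 h, or replicate 1 of WT 12 h, or replicate 1 of KLHL6-KO 0 h, or replicate 3 of KLHL6-KO 3 h, or replicate 3 of KLHL6-KO 8 h.

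In tumours labelled KLHL6-KO, 6 of the 39 members were called against WT tumours, all lower (15.4%, beside 17.5% of all genes, 8.44% higher and 9.02% lower). They were MAD2L1, CDC20, PTTG1, CCNB2, CENPF and the checkpoint kinase TTK. MAD2L1, CDC20 and PTTG1 are 3 of the 6 checkpoint and anaphase genes. The others, BUB3 (adjusted p = 0.13), UBE2C (adjusted p = 0.49) and ESPL1 (adjusted p = 0.91), were not called. MAD2L1 was 1315, 1332 and 1212 against 2909.5, 1741 and 1721 (log2 -0.68 ± 0.15, adjusted p = 0.0051). CENPF was 4995, 4728 and 5006 against 6419.8, 6193 and 6759 (log2 -0.39 ± 0.09, adjusted p = 0.0054). Both calls held under every alternative run, and in both every labelled KLHL6-KO library lay below every WT library. The size for MAD2L1 rests in part on WT replicate 1, without which it was log2 -0.43 (adjusted p = 0.00071). CCNB2 was 1637, 1505 and 1413 against 3342, 1937 and 1903 (log2 -0.61 ± 0.16, adjusted p = 0.018), with WT replicate 1 far above the others. Its call was lost in a fit of these groups only, and without replicates 2 or 3 of labelled KLHL6-KO tumours (adjusted p up to 0.08). The securin gene PTTG1 (-0.51 ± 0.14) lost its call in a fit of these groups only, and without replicates 1 or 3 of labelled KLHL6-KO tumours (adjusted p up to 0.085), and TTK (-0.43 ± 0.11) without replicate 3 of labelled KLHL6-KO tumours (adjusted p up to 0.063). CDC20, the activator of the anaphase-promoting complex (-0.48 ± 0.16), lost its call in a fit of these groups only, and without replicates 1 or 2 of WT tumours, or replicates 1, 2 or 3 of labelled KLHL6-KO tumours (adjusted p up to 0.17). Without WT replicate 1 the sizes were log2 -0.34 (adjusted p = 0.019) for CCNB2, log2 -0.30 (adjusted p = 0.024) for PTTG1 and log2 -0.32 (adjusted p = 0.17) for CDC20. In that fit 7 members were called, all lower, with ASPM and TOP2A added and CDC20 dropped, and the count was 2 without replicate 3 of labelled KLHL6-KO tumours. Over all genes, leaving out 1 library at a time gave 1131 to 2776 called, against 2445 with all libraries. ASPM (log2 -0.29 ± 0.11, adjusted p = 0.068) and TOP2A, topoisomerase II (log2 -0.25 ± 0.10, adjusted p = 0.1), were not called with all libraries. Of 48 further G2/M genes 6 were higher and 6 lower. Of the G1/S and replication genes 8 of 45 were higher and none lower, with POLA1, the catalytic subunit of DNA polymerase alpha, at 1732 ± 108 against 1139 ± 105 (log2 0.61 ± 0.08, adjusted p = 0.00022), and CDKN1B, the inhibitor p27, was lower (1340.4 ± 43.7 against 2049 ± 40.7, log2 -0.61 ± 0.08, adjusted p = 9.9e-05).

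In tumours labelled NOTCH2-KO, the spindle genes HMMR, ASPM, DLGAP5 and KIF4A, which are 4 of the 11 kinesins and spindle genes, were higher than in WT tumours, as were CCNA2, CENPF and BUB1. The other 7 of the 11 were not called, with KIF23 at -0.23 ± 0.09 (adjusted p = 0.055), and the WT libraries are the same 3 as above. Of the members 7 were higher and 1 lower than in WT tumours (20.5%, beside 30.7% of all genes, 16.2% higher and 14.5% lower). HMMR was 2303, 1721 and 2387 against 1279, 1253 and 1262 (log2 0.74 ± 0.12, adjusted p = 0.00024), the largest difference of a member in any comparison. ASPM was 8374, 7777 and 8041 against 4726, 5475 and 6156 (log2 0.57 ± 0.11, adjusted p = 0.00088) and DLGAP5 3347, 3273 and 3529 against 2451, 2334 and 2284 (log2 0.52 ± 0.09, adjusted p = 0.00063). These 3 spindle genes were apart in every library. CENPF (8349.5 ± 382 against 6457 ± 285, log2 0.37 ± 0.09, adjusted p = 0.0041) and the chromokinesin KIF4A (0.36 ± 0.09) were higher too. NDC80, the microtubule-binding subunit of the outer kinetochore, was lower at 1674, 1699 and 1626 against 2816, 1987 and 2111 (log2 -0.45 ± 0.12, adjusted p = 0.0086). CCNA2 was 2443, 2398 and 2759 against 2324, 1582 and 1465 (log2 0.53 ± 0.14, adjusted p = 0.0096), a call lost without replicate 3 of labelled NOTCH2-KO tumours (adjusted p up to 0.05), and BUB1 (0.35 ± 0.11) lost its call without replicate 2 of WT tumours, or replicates 1 or 3 of labelled NOTCH2-KO tumours (adjusted p up to 0.1). Without WT replicate 1 NDC80 was log2 -0.30 (adjusted p = 0.013) and the count was 15, with 14 higher, and CCNA2, FOXM1, KIF20A, NEK2, NUF2, MAD2L1, CDK1 and PRC1 were among them. CDK1 and PRC1 were thus called once that library was left out. Over all genes, leaving out 1 library at a time gave 2875 to 4507 called, against 4301 with all libraries. Of 48 further G2/M genes 9 were higher and 2 lower, with LBR, a lamin B receptor of the nuclear envelope, at 7638 ± 227 against 4015 ± 409 (log2 0.93 ± 0.10, adjusted p = 1.1e-05). The stroma list, of which 8 of 15 genes had a row, summed to 506 to 581 in these tumours and 272 to 301 in WT, and the macrophage list, with 6 of 9, to 279 to 312 and 159 to 243. Their part in the result was not tested.

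**Figure D3:**
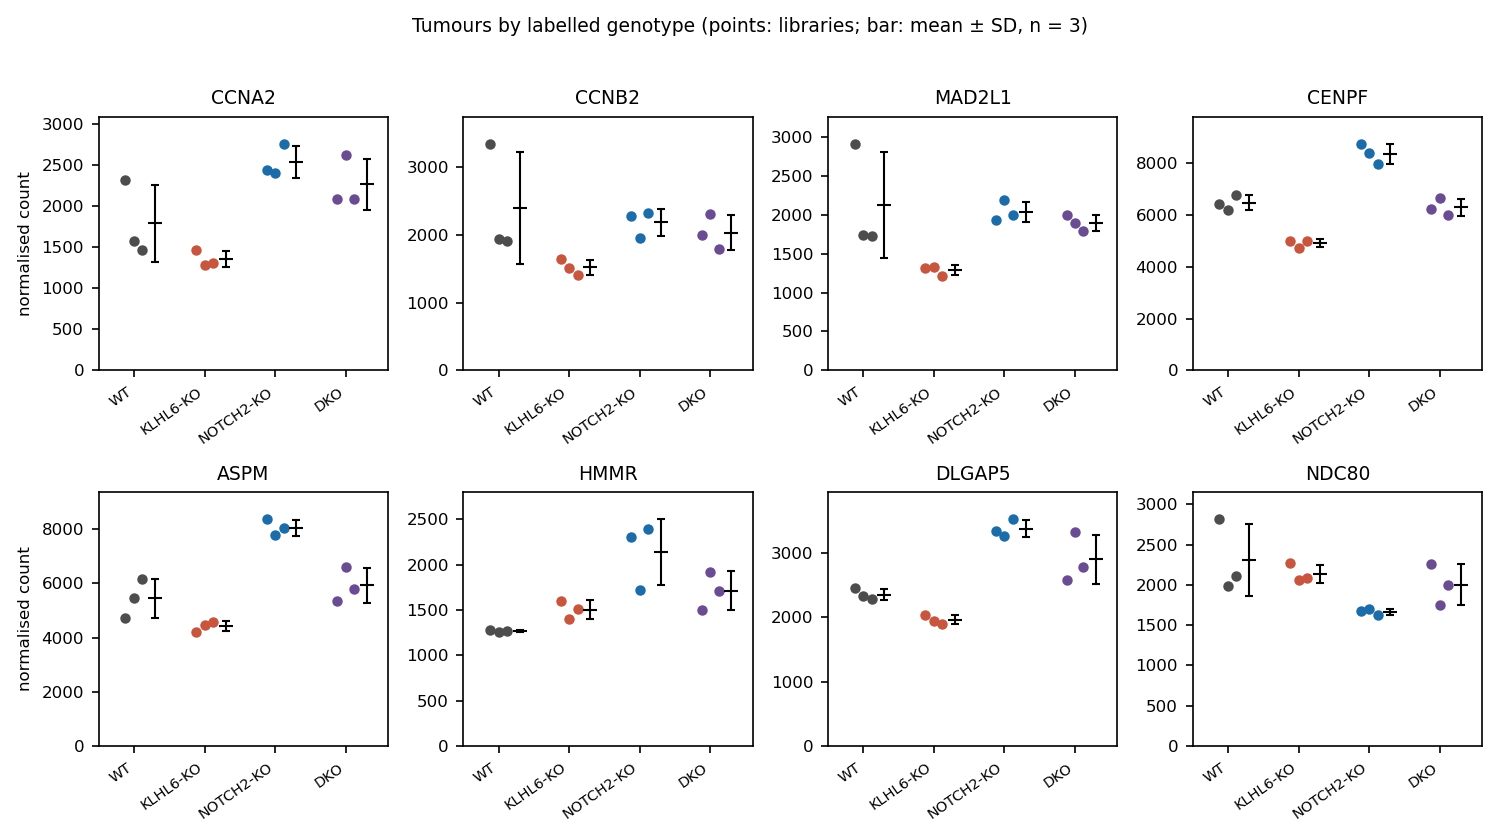
Normalised counts (y axis) of 8 mitotic genes in tumours by labelled genotype (x axis), with a point per library and a bar at the mean ± SD of 3 libraries. WT replicate 1 lies above the other 2 WT libraries in CCNA2, CCNB2, MAD2L1 and NDC80, and the labelled KLHL6-KO libraries lie lowest in CCNB2, MAD2L1, CENPF and DLGAP5.

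In the labelled DKO tumours HMMR was the 1 member called against WT (1495, 1923 and 1713 against 1279, 1253 and 1262, log2 0.43 ± 0.12, adjusted p = 0.031, 2.56%, beside 9.35% of all genes, 5.5% higher and 3.86% lower), a call lost in a fit of these groups only, and without replicate 2 of WT tumours, or replicates 2 or 3 of labelled DKO tumours (adjusted p up to 0.12). The count was 0 without replicate 2 of WT tumours, or replicate 3 of labelled DKO tumours, and 2 without replicate 3 of WT tumours, or replicate 1 of labelled DKO tumours, and 5 without replicate 1 of WT tumours. Against labelled KLHL6-KO tumours 5 members were higher and none lower (12.8%, beside 10.8% of all genes, 6.25% higher and 4.51% lower). CCNA2 was 2089, 2617 and 2086 against 1465, 1288 and 1310.4 (log2 0.73 ± 0.14, adjusted p = 0.0026), and DLGAP5 was 2589, 3335 and 2784 against 2043, 1948 and 1901 (log2 0.56 ± 0.09, adjusted p = 0.00087). Both were apart in every library and called under every alternative run. MAD2L1 (0.55 ± 0.15), ASPM (0.42 ± 0.11) and CENPF (0.35 ± 0.09) were also higher, and the count was 2 without replicate 2 of labelled KLHL6-KO tumours, and 3 without replicate 1 of labelled KLHL6-KO tumours, or replicates 2 or 3 of labelled DKO tumours. MAD2L1 lost its call without any 1 of the 6 libraries (adjusted p up to 0.088), ASPM without replicates 1 or 2 of labelled KLHL6-KO tumours, or replicates 2 or 3 of labelled DKO tumours (adjusted p up to 0.078) and CENPF without replicate 2 of labelled KLHL6-KO tumours, or replicate 2 of labelled DKO tumours (adjusted p up to 0.064).

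Against labelled NOTCH2-KO tumours the labelled DKO tumours had 3 members lower (7.69%, beside 6.81% of all genes, 3.52% higher and 3.29% lower). ASPM was 5365, 6616 and 5809 against 8374, 7777 and 8041 (log2 -0.45 ± 0.11, adjusted p = 0.017), CENPF 6212, 6635 and 5993 against 8718, 8376 and 7954 (log2 -0.41 ± 0.09, adjusted p = 0.0072) and NEK2 1526, 1526 and 1319.7 against 2001, 1754 and 2027 (log2 -0.40 ± 0.11, adjusted p = 0.032). No libraries overlapped. NEK2 lost its call without replicates 1 or 3 of labelled NOTCH2-KO tumours, or replicates 1 or 3 of labelled DKO tumours (adjusted p up to 0.16), ASPM without replicates 1 or 3 of labelled NOTCH2-KO tumours, or replicates 1 or 3 of labelled DKO tumours (adjusted p up to 0.1), and CENPF without replicate 1 of labelled NOTCH2-KO tumours, or replicate 3 of labelled DKO tumours (adjusted p up to 0.057). The count was 0 without replicate 1 of labelled NOTCH2-KO tumours, or replicate 3 of labelled DKO tumours, and 1 without replicate 3 of labelled NOTCH2-KO tumours, or replicate 1 of labelled DKO tumours, and 6 without replicate 2 of labelled DKO tumours. For the interaction of the 2 labelled knockouts, HMMR alone was called (log2 -0.56 ± 0.16, adjusted p = 0.038, 2.56%, beside 10.8% of all genes, 5.53% higher and 5.31% lower): it was 1265 ± 13.0 in WT, 1504 ± 101 in labelled KLHL6-KO, 2137 ± 362 in labelled NOTCH2-KO and 1710.0 ± 214 in labelled DKO tumours. The count was 0 without replicates 1 or 3 of labelled KLHL6-KO tumours, or replicates 1 or 3 of labelled NOTCH2-KO tumours, or replicates 1 or 3 of labelled DKO tumours, and 2 without replicates 1 or 3 of WT tumours, or replicate 2 of labelled DKO tumours. Over the 39 members the summed count was 98934 ± 7995 in WT, 84583 ± 1562 in labelled KLHL6-KO, 108336 ± 3735 in labelled NOTCH2-KO and 99155 ± 4745 in labelled DKO tumours. Comparisons that share the WT libraries are not independent of each other.

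Among the NOTCH2 variants, S2156A and R2400* tumours had less cyclin A, MAD2, CENPF and ASPM transcript than NOTCH2(WT) tumours, and the comparisons share the NOTCH2(WT) libraries. For S2156A, a substitution, 9 members were lower and none higher (23.1%, beside 15.2% of all genes, 7.14% higher and 8.06% lower). CCNA2 was 1494, 1563 and 1492 against 2422, 2543 and 2452 (log2 -0.70 ± 0.06, adjusted p = 4.2e-09). MAD2L1 was 1589, 1604 and 1505 against 2185, 2226 and 2099 (log2 -0.47 ± 0.06, adjusted p = 3.7e-06), and CENPF 4986, 5325 and 5065 against 6674, 6949 and 7034 (log2 -0.43 ± 0.05, adjusted p = 1.7e-07). All 3 were apart in every library and called under every alternative run. So were NEK2 (1369 ± 23.2 against 1751 ± 31.1, -0.35 ± 0.06) and ASPM (5018 ± 59.6 against 6293 ± 167, -0.33 ± 0.05). CDC20 (-0.23 ± 0.06) lost its call without replicate 1 of NOTCH2(S2156A) (adjusted p up to 0.057), and FOXM1 (-0.19 ± 0.06) with no filter on low values, and without replicates 1, 2 or 3 of NOTCH2(WT), or replicates 1, 2 or 3 of NOTCH2(S2156A) (adjusted p up to 0.23). TOP2A (-0.17 ± 0.05) lost its call without replicates 1 or 2 of NOTCH2(WT), or replicate 3 of NOTCH2(S2156A) (adjusted p up to 0.12), and CCNB1 (-0.17 ± 0.06) without replicates 1, 2 or 3 of NOTCH2(WT), or replicates 1 or 3 of NOTCH2(S2156A) (adjusted p up to 0.19). Of 48 further G2/M genes 2 were higher and 7 lower, with GAS2L3, a cytoskeletal protein of late mitosis, at 104 ± 4.70 against 186 ± 15.6 (log2 -0.83 ± 0.12, adjusted p = 7.1e-06), and the E2F partner TFDP1 was lower (7929.5 ± 111 against 10633 ± 166, log2 -0.42 ± 0.04, adjusted p = 5.6e-08).

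For R2400*, a truncation, 6 members were lower and none higher (15.4%, beside 8.04% of all genes, 3.73% higher and 4.32% lower). CCNA2 was 1851, 1813 and 1765 (log2 -0.45 ± 0.06, adjusted p = 2.0e-05), CENPF 4989, 5165 and 5352 (log2 -0.41 ± 0.05, adjusted p = 1.5e-06) and MAD2L1 1649.6, 1659 and 1703 (log2 -0.38 ± 0.06, adjusted p = 0.00023). Each lay below all NOTCH2(WT) libraries. ASPM (-0.33 ± 0.05) and MKI67 (5228 ± 220.0 against 6329.6 ± 140.4, log2 -0.28 ± 0.06, adjusted p = 0.0031) were lower too, and these 5 calls held under every alternative run. ESPL1 (-0.19 ± 0.05) lost its call without replicates 1 or 2 of NOTCH2(WT), or replicate 1 of NOTCH2(R2400*) (adjusted p up to 0.11).

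The earlier truncation Q2140* differed in direction by gene. BUB1 was higher, at 1252, 1364 and 1229 against 993, 913 and 967 (log2 0.42 ± 0.06, adjusted p = 1.5e-05), and CENPF lower, at 5761, 5767 and 5418 against 6674, 6949 and 7034 (log2 -0.29 ± 0.05, adjusted p = 5.9e-05). Neither overlapped NOTCH2(WT), and both held under every alternative run. In all 2 were higher and 2 lower (10.3%, beside 20.5% of all genes, 9.72% higher and 10.8% lower). CDC20 (log2 0.19 ± 0.06, adjusted p = 0.02) lost its call without replicate 3 of NOTCH2(WT), or replicate 2 of NOTCH2(Q2140*) (adjusted p up to 0.096), and ASPM (log2 -0.13 ± 0.05, adjusted p = 0.04) in a fit of these groups only, and without replicates 1, 2 or 3 of NOTCH2(WT), or replicates 1 or 3 of NOTCH2(Q2140*) (adjusted p up to 0.15). The count was 2 without replicate 3 of NOTCH2(WT), and 7 without replicate 3 of NOTCH2(Q2140*).

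**Figure D4:**
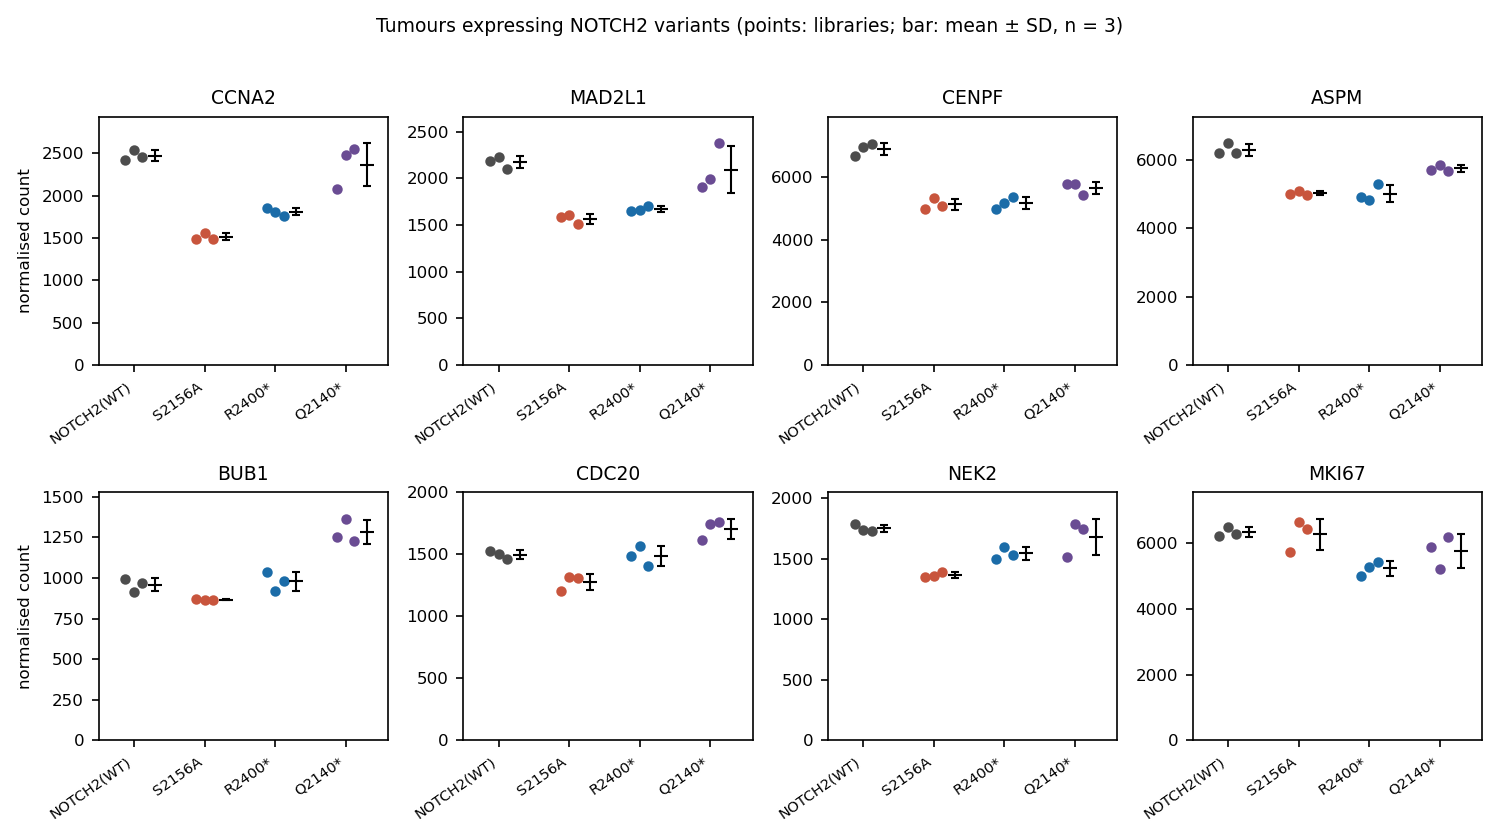
Normalised counts (y axis) of 8 mitotic genes in tumours that express NOTCH2(WT) or a variant (x axis), with a point per library and a bar at the mean ± SD of 3 libraries. CCNA2, MAD2L1, CENPF and ASPM are lower with S2156A and R2400* than with NOTCH2(WT), and BUB1 is highest with Q2140*.

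Among the variants set against each other, S2156A and Q2140* had the most members called. In S2156A tumours 12 members were lower and 1 higher (33.3%, beside 30.7% of all genes, 15.2% higher and 15.4% lower). CCNA2 was 1494, 1563 and 1492 against 2081, 2477 and 2548 (log2 -0.64 ± 0.06, adjusted p = 9.4e-09) and BUB1 868, 862 and 867 against 1252, 1364 and 1229 (log2 -0.56 ± 0.06, adjusted p = 6.6e-08). CDC20 was 1207, 1321 and 1308 against 1616, 1747 and 1762 (log2 -0.42 ± 0.06, adjusted p = 2.8e-06). No library overlapped in these 3 genes. MAD2L1 (-0.41 ± 0.06), CENPA (-0.32 ± 0.08), NEK2 (-0.29 ± 0.06) and ASPM (-0.20 ± 0.05) were lower as well. AURKA was the 1 member higher (1412 ± 22.5 against 1263 ± 55.1, log2 0.16 ± 0.06, adjusted p = 0.03), a call lost with no filter on low values, and without replicates 1, 2 or 3 of NOTCH2(S2156A), or replicates 1 or 2 of NOTCH2(Q2140*) (adjusted p up to 0.11). B-cell markers summed to 53073 to 57021 in Q2140* and 43456 to 44436 in S2156A tumours, and the stroma list to 556 to 1009 and 537 to 601. Their part in these differences was not tested.

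Between the truncations, Q2140* had 6 members higher than R2400* and none lower (15.4%, beside 18.9% of all genes, 9.48% higher and 9.46% lower). BUB1 (log2 0.39 ± 0.06, adjusted p = 4.9e-05), CCNA2 (log2 0.38 ± 0.06, adjusted p = 5.8e-05) and MAD2L1 (log2 0.32 ± 0.06, adjusted p = 0.00065) led, and the count was 11 without replicate 1 of NOTCH2(Q2140*). S2156A and R2400* had the fewest, with 2 members higher and 2 lower in S2156A (10.3%, beside 4.76% of all genes, 1.93% higher and 2.83% lower). MKI67 was 5737, 6637 and 6421 against 4992, 5266 and 5427 (log2 0.26 ± 0.06, adjusted p = 0.011), and CCNA2 1494, 1563 and 1492 against 1851, 1813 and 1765 (log2 -0.26 ± 0.06, adjusted p = 0.014). The libraries were apart in both. The count was 0 without replicate 3 of NOTCH2(S2156A), or replicate 1 of NOTCH2(R2400*), and 1 without replicates 1 or 2 of NOTCH2(S2156A), and MKI67 lost its call without replicates 2 or 3 of NOTCH2(S2156A), or replicate 1 of NOTCH2(R2400*) (adjusted p up to 0.091) and CCNA2 without replicates 1 or 3 of NOTCH2(S2156A), or replicate 1 of NOTCH2(R2400*) (adjusted p up to 0.084).

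**Figure D5:**
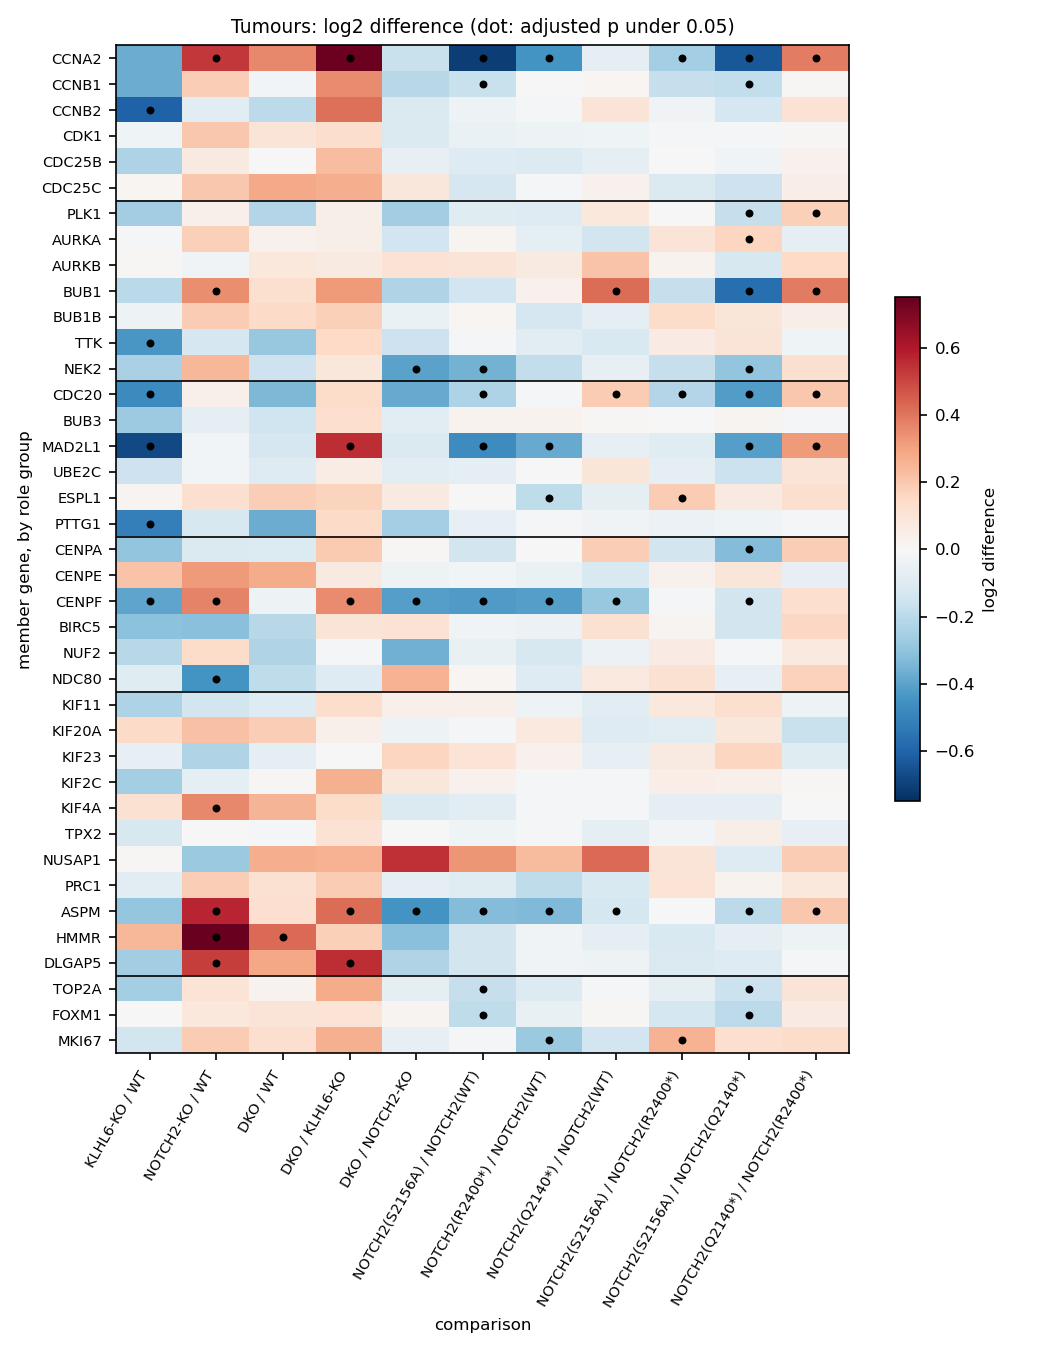
Log2 difference (colour) of the 39 members (rows, in 6 role groups divided by lines) in 11 tumour comparisons (columns), with a dot where the adjusted p is under 0.05. CENPF and ASPM carry dots in most columns, HMMR is highest in labelled NOTCH2-KO against WT, and CCNA2 is lowest in S2156A against NOTCH2(WT).

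Members with and without TTTGAA in a window both moved in either direction. Of those without it, BUB1 and CDC25B held the variant TTCGAA, and no other form of the CHR was searched. In WT cells at 3 h, 5 of the 22 members with TTTGAA in a window were higher and 6 lower, and of the 10 without it 2 were higher and 4 lower. At 12 h in KLHL6-KO cells 8 of 22 and 2 of 10 were lower. In S2156A tumours 5 of 22 and 3 of 10 were lower than with NOTCH2(WT), CCNA2 with the largest difference among those without it. Of all genes, 27.2% were higher and 27.6% lower in WT cells at 3 h. Lower calls made up 20% of all genes in KLHL6-KO cells at 12 h and 8.06% in S2156A tumours. The counts are descriptions with no test.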

How the data were processed

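Polyadenylated RNA was sequenced with a strand-marking kit, per the labels. The submitters' processing notes name STAR, SAMtools and DESeq2 with GRCh38. Their versions, like the read counter and the annotation, were not given in the sources used here. What was deposited is, from the values, a signal per gene that equals read counts divided by 1 factor per library: 100% of values were whole multiples of the library's smallest step within 0.02 steps, so reads could be recovered. Values were tested in each experiment with limma 3.58.1 in R 4.3.3 (trend, robust) on log2(value + 2), with 1 coefficient per group over all its libraries, for genes at 10 or more in at least 3 libraries. Benjamini-Hochberg adjustment covered all genes tested, and the fit was tested on simulated data for 1 comparison per experiment. It recovered 18% of 1.25-fold changes for coculture, 6% for knockout tumours and 52% for mutant tumours. For 1.5-fold changes these were 58%, 44% and 72%. The simulations changed only 50 genes at each size, whereas in WT cells at 3 h 54.8% of all genes were called. The adjustment was thus stricter in the simulations, and these rates do not give the power for the members. A member that was not called may still differ, by an amount not estimated here. Fold changes on this scale understate those of low genes. Alternatives were a pseudocount of 8, no filter, TMM scaling, edgeR 4.0.16 (quasi-likelihood) on the recovered reads, the libraries of the groups compared alone, a replicate block and leaving out each library. The members, role groups and lists were chosen with earlier results of these data known. Members given with values in a comparison are chiefly the called ones with the largest changes and no overlap, at most 6 in each direction, and those with the largest change of a role group; any other member may be named. Of the other lists, genes come from the 2 with the smallest p in each direction. Promoters are those of the members with the most calls.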

Additional observations from a re-analysis of the deposited data

Results flagged for a closer look

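The genotype-by-time test in coculture passed the threshold for 5 members (12.8%, beside 12.4% of all genes), a share close to that of all genes. By limma over all genes they were CENPF (adjusted p = 0.03), CDC25B (adjusted p = 0.037), FOXM1 (adjusted p = 0.038), ESPL1 (adjusted p = 0.039) and BUB3 (adjusted p = 0.045). Leaving out 1 library at a time gave 0 to 7 members. In the tumours HMMR differed in the effect of the KLHL6-KO label between the NOTCH2+/+ and NOTCH2-/- labels, with an interaction of log2 -0.56. It was the 1 member called (2.56%, beside 10.8% of all genes), and leaving out 1 library at a time gave 0 to 2. For CCNB1, CDC25B and CENPF the groups did not overlap in either setting and the differences had opposite signs. BUB1, NEK2 and PTTG1 were lower in both settings, also with no overlap. How often all genes did either was not counted, so neither is a result about the members. CCNB1, CDC25B and CENPF were above WT in KLHL6-KO cells at 0 h of culture, with log2 0.25, 0.19 and 0.28 (adjusted p = 0.0031, 0.014 and 0.00074). In labelled KLHL6-KO against WT tumours CENPF was lower at log2 -0.39 (adjusted p = 0.0054), while CCNB1 at -0.37 (adjusted p = 0.13) and CDC25B at -0.23 (adjusted p = 0.17) did not pass the threshold, and without WT replicate 1 they were log2 -0.23 (adjusted p = 0.4) and log2 -0.15 (adjusted p = 0.35). The difference between culture and tumour was not tested, the experiments were normalised separately, and KLHL6 itself went against the label in those tumours.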

How the results depend on the processing

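Of 228 called changes of members, 120 passed the threshold under every alternative run, 108 lost it under at least 1, and 0 changed direction. Depth limits NUSAP1 most, at 12.1 ± 6.88 normalised counts (n = 3) in WT cells at 0 h. Leaving out 1 library at a time moved the counts of called members as follows: 17 to 19 (WT 3 h against 0 h), 14 to 22 (WT 8 h against 0 h), 13 to 19 (WT 12 h against 0 h), 10 to 13 (WT 8 h against 3 h), 7 to 13 (WT 12 h against 8 h), 10 to 12 (KLHL6-KO 3 h against 0 h), 6 to 8 (KLHL6-KO 8 h against 0 h), 14 to 17 (KLHL6-KO 12 h against 0 h), 7 to 10 (KLHL6-KO 8 h against 3 h), 1 to 6 (KLHL6-KO 12 h against 8 h), 4 to 9 (KLHL6-KO against WT at 0 h), 1 to 3 (KLHL6-KO against WT at 3 h), 2 to 5 (KLHL6-KO against WT at 8 h), 0 to 2 (KLHL6-KO against WT at 12 h), 0 to 7 (genotype by time in coculture), 2 to 9 (labelled KLHL6-KO against WT tumours), 6 to 15 (labelled NOTCH2-KO against WT tumours), 0 to 5 (labelled DKO against WT tumours), 2 to 5 (labelled DKO against labelled KLHL6-KO tumours), 0 to 6 (labelled DKO against labelled NOTCH2-KO tumours), 0 to 2 (KLHL6 by NOTCH2 interaction in tumours), 6 to 8 (NOTCH2(S2156A) against NOTCH2(WT) tumours), 5 to 7 (NOTCH2(R2400*) against NOTCH2(WT) tumours), 2 to 7 (NOTCH2(Q2140*) against NOTCH2(WT) tumours), 0 to 4 (NOTCH2(S2156A) against NOTCH2(R2400*) tumours), 9 to 15 (NOTCH2(S2156A) against NOTCH2(Q2140*) tumours) and 5 to 11 (NOTCH2(Q2140*) against NOTCH2(R2400*) tumours). With the libraries of the groups compared alone, the count by limma was 11 (WT 12 h against 0 h), 6 (WT 12 h against 8 h), 8 (KLHL6-KO against WT at 3 h), 3 (labelled KLHL6-KO against WT tumours), 0 (labelled DKO against WT tumours) and 8 (labelled DKO against labelled KLHL6-KO tumours). With no filter on low values it was 6 (KLHL6-KO 8 h against 0 h), 1 (KLHL6-KO against WT at 3 h) and 1 (genotype by time in coculture). TMM scaling gave 2 and edgeR 2 for labelled DKO against WT tumours. The labels do not say whether same-numbered replicates were pairs, so they were treated as unpaired: in 0 of 25 comparisons did every pair correlate above 0.1, and in 5 of 25 every sample correlated best with its own number, a hint from the data only. The replicate block gave 5 (KLHL6-KO against WT at 3 h), 2 (KLHL6-KO against WT at 12 h) and 8 (genotype by time in coculture), with the other counts of members within 1.5 times. With the block 4 calls did not pass: MKI67 in WT 12 h against 0 h (adjusted p = 0.057), MKI67 in KLHL6-KO against WT at 8 h (adjusted p = 0.075), CCNB1 in NOTCH2(S2156A) against NOTCH2(WT) tumours (adjusted p = 0.052) and ASPM in NOTCH2(Q2140*) against NOTCH2(WT) tumours (adjusted p = 0.054). Over all genes, the replicate block moved the number called to 1814 from 1175 (KLHL6-KO against WT at 3 h), 1027 from 652 (KLHL6-KO against WT at 8 h), 784 from 510.0 (KLHL6-KO against WT at 12 h) and 2821 from 1858 (genotype by time in coculture). Over all genes, the groups alone moved the number called to 2074 from 1175 (KLHL6-KO against WT at 3 h), 1291 from 2445 (labelled KLHL6-KO against WT tumours), 231 from 1310.0 (labelled DKO against WT tumours), 1436 from 954 (labelled DKO against labelled NOTCH2-KO tumours), 3914 from 2333 (NOTCH2(S2156A) against NOTCH2(WT) tumours) and 1600.0 from 2908 (NOTCH2(Q2140*) against NOTCH2(R2400*) tumours). Over all genes, leaving out 1 library gave 1184 to 2665 (genotype by time in coculture), 647 to 1035 (KLHL6-KO against WT at 3 h), 2470 to 3895 (WT 12 h against 8 h), 381 to 659 (KLHL6-KO against WT at 8 h), 282 to 572 (KLHL6-KO against WT at 12 h), 1019 to 1629 (KLHL6-KO 12 h against 8 h), 1131 to 2776 (labelled KLHL6-KO against WT tumours), 424 to 1591 (labelled DKO against WT tumours), 760 to 2410 (KLHL6 by NOTCH2 interaction in tumours), 799 to 1287 (labelled DKO against labelled KLHL6-KO tumours), 423 to 1360 (labelled DKO against labelled NOTCH2-KO tumours), 716 to 1293 (NOTCH2(R2400*) against NOTCH2(WT) tumours), 2063 to 2957 (NOTCH2(Q2140*) against NOTCH2(WT) tumours) and 255 to 1052 (NOTCH2(S2156A) against NOTCH2(R2400*) tumours). No scaling moved the median of all genes by 0.1 log2 or the share of higher calls by 10 percentage points.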
